A study of Mus musculus with 4 samples.

Results

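The cytosolic ribosomal proteins are the protein components of the large (Rpl) and small (Rps) subunits of the ribosome that translates nuclear-encoded mRNA. Their genes were taken by symbol from the deposited gene table: Rpl or Rps, an optional p, a number and an optional a, x or l, with Rpsa added and pseudogene names left out. This gave 81 of 34745 rows, of which 49 belonged to the large subunit and 32 to the small subunit. Each stood under 1 Ensembl identifier found in GENCODE M21 (GRCm38), where 80 were protein-coding and Rps4l was a transcribed processed pseudogene. Proteins of the ribosome whose genes carry other names, such as Fau and Rps3a1, fall outside that rule and are described as a separate list.

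The RNA came from Th17 cells, helper T cells that make interleukin 17. They were grown for 3 days in Th17-polarizing culture from naive CD4+ T cells of the spleen of C57BL/6 mice. WT mice gave libraries 13 and 15, and mice labelled Setd2-CD4 cre gave libraries 22 and 24. Setd2 encodes the methyltransferase that places trimethylation on lysine 36 of histone H3, and Cre driven by Cd4 sequences acts in T cells from the double-positive stage of the thymus, so that CD8+ cells carry the recombined allele too. The sources used here do not give the exons that the allele removes, whether the WT mice carried Cre, the age of the mice or whether each library is a separate animal. The p-values below therefore rest on the spread between these 4 samples alone, which may be technical.

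Library totals were 11007343 to 12518415 counts. Setd2 itself had 184 and 176 CPM in WT, against 144 and 153 in Setd2-CD4 cre (log2 fold change -0.28, SE 0.10, adjusted p = 0.0748 by edgeR's quasi-likelihood test), a sum over the whole gene that does not test for loss of single exons. CPM here is the count scaled to library size (1e6) with TMM factors. Among all tested genes 16.2% rose and 14.5% fell at an edgeR adjusted p of 0.05, the share to set beside each marker list here. Of 7 genes of T and Th17 identity, 3 rose, Rora and Il17a among them, Cd3e and Cd3d fell, and Cd4 stood at 940.2 to 1139 CPM in all 4 libraries. B cell markers were higher in Setd2-CD4 cre: the 14 listed genes summed to 269 and 228 CPM in WT against 811 and 554 in libraries 22 and 24, 11 of the 14 passed, and none was at 0. The 8 dendritic-list genes summed to 151 and 139.7 CPM in WT and to 518 and 290.4 CPM, with Xcr1 at 0 in 3 libraries. Of 7 tested 4 rose, namely Flt3, H2-Aa, H2-Ab1 and Cd74. Itgax did not follow, at 9.30, 7.16, 5.65 and 5.50 CPM in WT 13, WT 15, 22 and 24 (log2 fold change -0.56, edgeR adjusted p = 0.125). Zbtb46 had 9.53, 7.84, 6.53 and 21.4 CPM in the same order and did not pass. Of the 8 CD8 and NK genes, summing to 100.3, 118, 231 and 126 CPM, 2 of 7 tested rose, and of the 6 gamma-delta genes, at 14.4, 12.9, 69.4 and 58.7 CPM, 2 of 4 tested rose. Those were Blk, a kinase that B cells also express, at 3.43, 3.12, 38.5 and 23.9 CPM, and 5830411N06Rik at 3.05, 3.81, 20.7 and 27.0 CPM. The delta constant region Trdc was at 4.88, 4.19, 6.62 and 2.93 CPM (log2 fold change 0.07, edgeR adjusted p = 0.907), and Trdv4 and Sox13 were under 1 CPM in every library. The 8 myeloid genes summed to 5.84 to 15.8 CPM with 0 of 4 tested passing by edgeR (0 at an unadjusted p of 0.05) or DESeq2, and the 4 erythroid genes reached at most 0.915 CPM, with Alas2 at 0 in every library. The B cell sum had the same order as the ribosomal protein share given below, with library 22 highest, 24 next and both WT libraries lowest, and its part in the results was not tested. In bulk RNA, a change in the mix of cells and a change in RNA per cell cannot be told apart.

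Growing T cells build ribosomes at a high rate, and each subunit needs its proteins in fixed proportion around the ribosomal RNA. The mRNAs of most ribosomal proteins begin with a C followed by a run of pyrimidines, the terminal oligopyrimidine (TOP) motif, through which the kinase complex mTORC1 and the RNA-binding protein Larp1 control their translation and stability as a group. Many of these genes also have processed pseudogenes, copies of the spliced mRNA elsewhere in the genome, which makes reads hard to assign.

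The starts of named genes are shown because the TOP motif is what the family shares outside its proteins. RefSeq start windows (GRCm38.p6) matched 60 of the 81 genes. Each sequence below runs 5′ to 3′ on the strand of the gene, from 15 bases before the annotated start to 14 after it, so that the start is base 16. Capitals mark a C within 3 bases of the start followed by at least 4 pyrimidines (C or T), searched on the transcribed strand only and regardless of any overlap with other motifs.
Rpl34: cgccttccctgacgtaCTTCCTgtccggcg (chr3:130730384-130730413, minus strand)
Rpl38: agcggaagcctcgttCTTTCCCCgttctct (chr11:114668565-114668594, plus strand)
Rplp2: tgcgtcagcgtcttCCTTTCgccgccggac (chr7:141447636-141447665, plus strand)
Rps6: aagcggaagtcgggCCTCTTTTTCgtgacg (chr4:86857353-86857382, minus strand)
Rpl15: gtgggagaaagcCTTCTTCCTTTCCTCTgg (chr14:18270972-18271001, minus strand)
Rps27l: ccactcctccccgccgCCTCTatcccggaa (chr9:66946071-66946100, plus strand)
Rpl24: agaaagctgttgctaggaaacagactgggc (chr16:55966260-55966289, plus strand)
Rps12: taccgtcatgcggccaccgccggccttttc (chr10:23787195-23787224, minus strand)
Rpl10: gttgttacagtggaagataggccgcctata (chrX:74270801-74270830, plus strand)
Rpsa: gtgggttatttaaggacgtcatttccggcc (chr9:120127751-120127780, plus strand)

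Such a run lay within 3 bases of a start in 24 of the 60 genes (40.0%), against 13.5% of the 27025 genes of the RefSeq table. Within 25 bases the shares were 52 of 60 (86.7%) and 59.3%. The first 6 genes shown have the run within 3 bases of the annotated start and the other 4 do not. Rps12 has such a run further downstream, at the end of its window. Genes with and without it are compared further on.

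Ribosomal protein mRNA made up a larger share of the counts in Setd2-CD4 cre cultures, mainly in library 22. The 81 genes held 4.01% of counts in WT 13 (95% Wilson interval 3.99 to 4.02), 3.92% in WT 15 (3.91 to 3.93), 5.49% in Setd2-CD4 cre 22 (5.48 to 5.51) and 4.36% in Setd2-CD4 cre 24 (4.35 to 4.37), intervals that cover counting error only. Library 22 stood far above the other 3, and 24 stood slightly above both WT libraries, so the genotypes did not overlap. Group means were 3.96 ± 0.0604% and 4.93 ± 0.800% (SD, n = 2 each), a difference of 0.965 percentage points (exact two-sided permutation p = 0.333, the smallest that 2 libraries against 2 allow). The 5 most abundant genes, Rpsa, Rpl4, Rplp0, Rpl13a and Rps4x, gave 30.9 to 32.7% of these counts in each library. The difference was 0.400 percentage points without library 22 and 1.53 without library 24. As a share of summed FPKM, the genes had 8.62 ± 0.263% in WT and 10.5 ± 1.21% in Setd2-CD4 cre (SD, n = 2 each), a difference of 1.90.

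**Figure D1:**
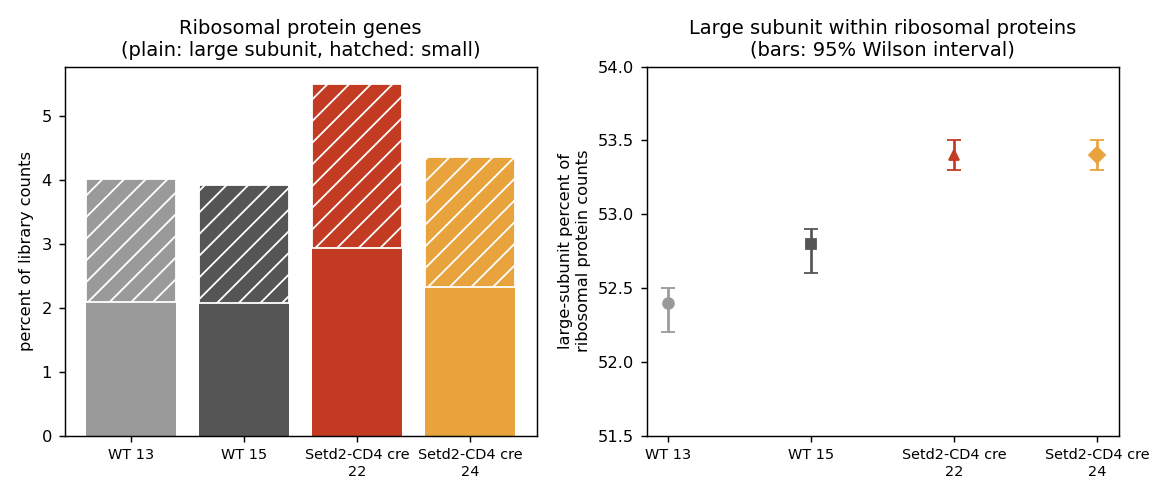
Left, percent of each library's counts in ribosomal protein genes, split into large subunit (plain) and small subunit (hatched). Right, large-subunit percent of ribosomal protein counts per library with 95% Wilson intervals, on an axis that does not start at 0. The left bars are 4.01, 3.92, 5.49 and 4.36% high, and the 2 Setd2-CD4 cre points on the right both lie at 53.4%.

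The balance between the subunits differed by about 1 percentage point. Large-subunit genes gave 52.4% and 52.8% of ribosomal protein counts in WT 13 and 15 and 53.4% in both Setd2-CD4 cre libraries, so the genotypes did not overlap. Means were 52.6 ± 0.281% and 53.4 ± 0.00801% (SD, n = 2 each; difference 0.847 percentage points; exact two-sided permutation p = 0.333, again the smallest possible). Libraries 22 and 24, which differed in the total share, had the same split. The difference was 1.30 percentage points of summed FPKM, 1.58 without the 5 most abundant genes and 1.32 with the copies described below added.

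Gene by gene, the family was shifted upward in Setd2-CD4 cre, by about 1.4-fold at its median, and no tested gene fell. After the filter on low counts 77 of the 81 genes were tested, 47 large and 30 small. Of these, 30 rose and 0 fell at an adjusted p of 0.05 by edgeR's quasi-likelihood test with Benjamini-Hochberg adjustment, against 16.2% higher and 14.5% lower among all 12927 genes tested (30.7% in either direction). At an unadjusted p of 0.05 edgeR had 45 higher and 0 lower, a threshold for which no share of all genes was worked out. DESeq2, limma-voom and limma-trend on FPKM called 0 lower after adjustment (11.4%, 13.0% and 21.2% of all genes). The other 47 genes did not pass the adjusted test, which does not show that they were unchanged. The fitted log2 fold change was positive for 74 of 77 genes (49.5% of all tested genes), with a median of 0.50 (fold 1.42, quartiles 0.32 and 0.59) against -0.01 for all tested genes. In 61 genes both Setd2-CD4 cre libraries lay above both WT libraries (34.6% of all tested genes), in 1 gene, Rpl15, they lay below (36.1%), and in 15 they overlapped.

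The large subunit had 22 of 47 genes higher with a median log2 fold change of 0.51, and the small subunit 8 of 30 with a median of 0.45 (16.2% higher among all tested genes). Genes whose genotypes did not overlap numbered 38 higher and 1 lower in the large subunit and 23 and 0 in the small (34.6% higher and 36.1% lower among all tested genes). No test of the difference between subunits was made at the level of genes.

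**Figure D2:**
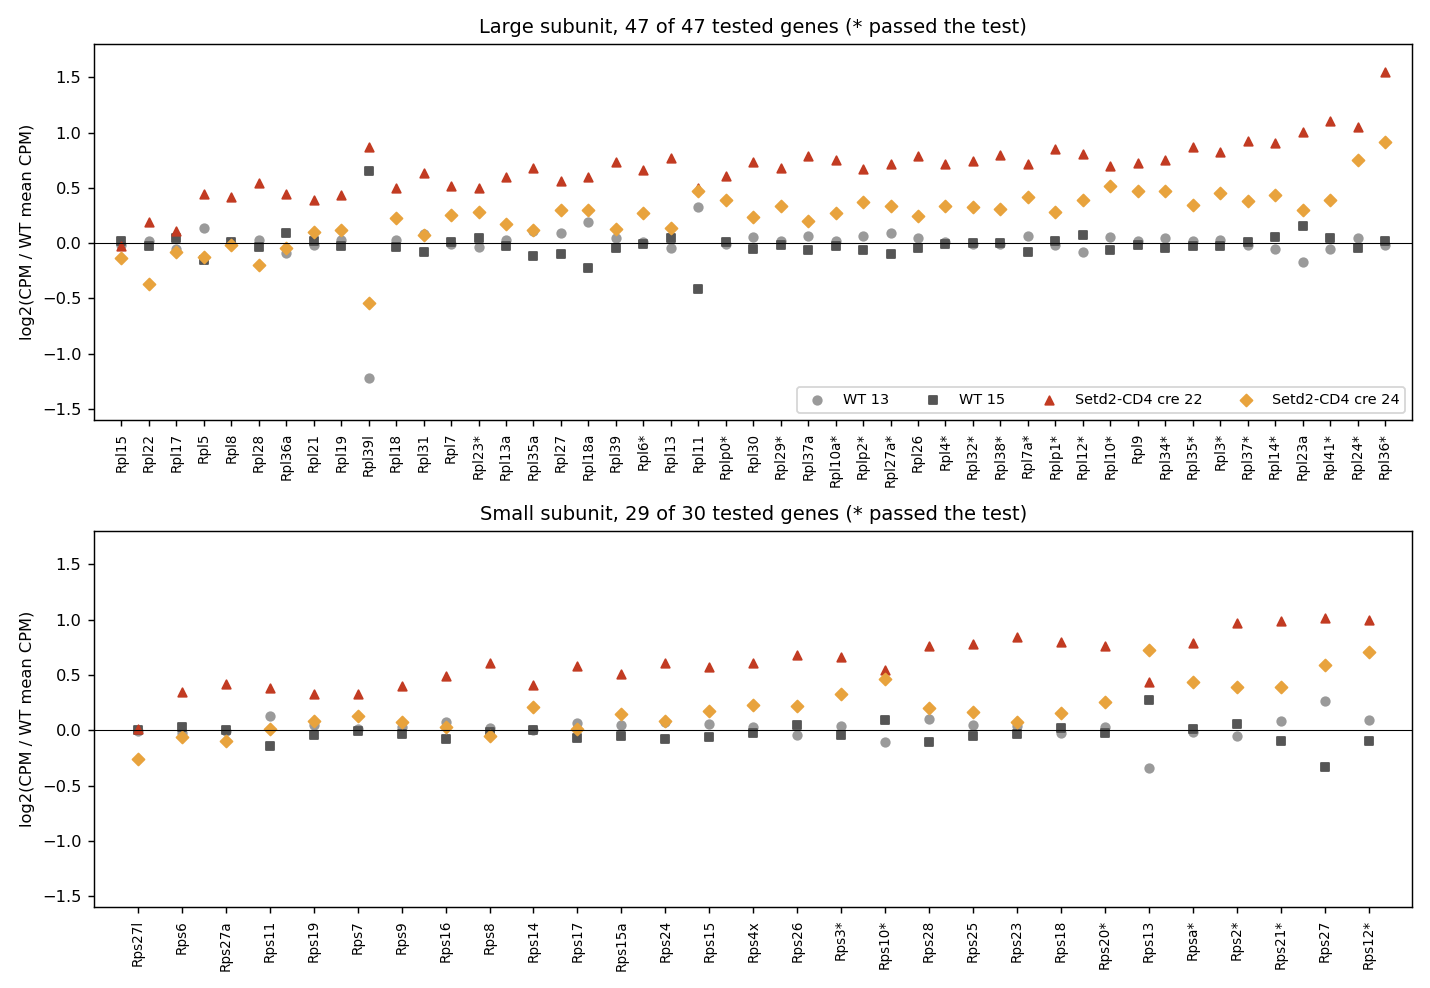
The level of 76 of the 77 tested genes in every library as log2 of its CPM over the WT mean CPM, large subunit above and small subunit below, ordered by fitted fold change, with an asterisk on genes that passed. Library 22 (triangles) lies above 24 (diamonds) for all genes drawn but Rps13, and the WT points spread widest for low-count genes such as Rpl39l and Rpl11.

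The calls depend on scaling and on single libraries, while the direction of the family median did not in any setting tried. With cyclic loess, and with WT 13 or WT 15 left out, the family was called no more often than all genes. The family median was 0.52 without WT 13 and 0.46 without WT 15. Upper-quartile factors, library totals and cyclic loess scaling left 14, 12 and 9 genes higher (12.1%, 10.9% and 14.4% of all genes), with the median at 0.39, 0.35 and 0.29 beside -0.12, -0.16 and 0.00 for all genes, and limma-trend on log2(FPKM + 1) left 8 (9.8%). The split of all genes moved with these scalings, from 2094 higher and 1880 lower to 1565 and 2617 with upper-quartile factors, 1409 and 2879 with library totals and 1267 and 2746 with FPKM. Leaving out WT 13 or WT 15 left 4 and 3 genes higher (6.88% and 5.40% of all genes), leaving out library 24 gave 66 (22.8%), and leaving out library 22 gave 36 (19.7%) with the family median at 0.25 and Rpl22 lower (17.3% of all genes).

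**Figure D3:**
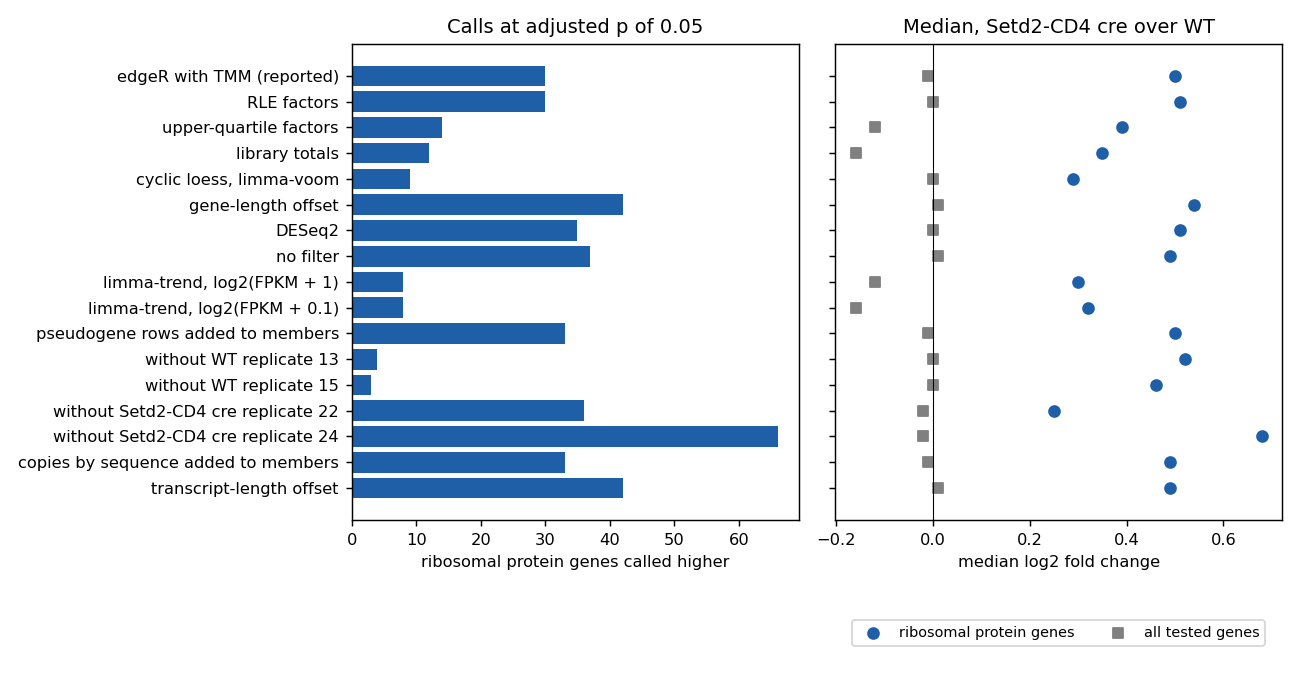
Left, the number of ribosomal protein genes called higher under the reported fit and each of 16 alternatives. Right, the median log2 fold change (Setd2-CD4 cre over WT) of ribosomal protein genes and of all tested genes. Calls range from 3 to 66, and the ribosomal protein median stays above the all-gene median in every setting, between 0.25 and 0.68.

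Among the genes with the firmest rises were Rpl24, a large-subunit protein at the interface of the subunits, and Rps12, a protein of the small subunit's beak. Rpl24 (ENSMUSG00000098274, chromosome 16, 55966275 to 55971435) had 623 and 584 CPM in WT 13 and 15, against 1249 and 1016 in libraries 22 and 24. Its mean was 603 ± 27.7 CPM in WT and 1133 ± 165 CPM in Setd2-CD4 cre (SD, n = 2 each; log2 fold change 0.91, SE 0.14, edgeR adjusted p = 0.00367). Both Setd2-CD4 cre libraries lay far above both WT libraries, and the lower of them was library 24. Rps12 (ENSMUSG00000061983, chromosome 10, 23785211 to 23787195) had 71.3 and 62.3 CPM in WT, against 133 and 109 in libraries 22 and 24 (log2 fold change 0.85, SE 0.14, edgeR adjusted p = 0.00437). In the deposited FPKM, Rpl24 went from 479 ± 18.7 to 809 ± 99.4 and Rps12 from 148 ± 13.1 to 240.1 ± 28.6 (SD, n = 2 each).

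Rpl36, another large-subunit protein, had the highest fold change of the tested genes, on few counts. It had 84 and 86 counts in WT against 194 and 133 in libraries 22 and 24, or 6.40, 6.55, 18.9 and 12.2 CPM. This was a log2 difference of 1.26 in the fit (SE 0.26, edgeR adjusted p = 0.00987). Rpl24, Rps12 and Rpl36 were the genes that passed in all 16 alternatives, and each was also higher with either Setd2-CD4 cre library left out: 0.76 and 1.05 for Rpl24, 0.71 and 1.0 for Rps12, and 0.92 and 1.55 for Rpl36, without 22 and without 24.

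Rpl10, Rpl3, Rpl34 and Rps2 also rose. Rpl10, which joins the large subunit last and is needed before the subunits can meet, had 94.2 and 86.6 CPM in WT, against 147 and 129 in libraries 22 and 24 (log2 fold change 0.61, SE 0.12, edgeR adjusted p = 0.00858). Rpl3, which lies close to the peptidyl transferase centre, went from 629.9 and 607 to 1095 and 844 CPM (0.65, SE 0.15, edgeR adjusted p = 0.0148), and Rpl34 went from 140.1 and 132 to 229 and 189 CPM (0.62, SE 0.12, edgeR adjusted p = 0.00961). On the small subunit, Rps2, at the mRNA entry, went from 559 and 602 to 1135 and 762 CPM (0.71, SE 0.19, edgeR adjusted p = 0.0282). All 4 separated the genotypes, with the 2 WT libraries close together and library 22 highest. The call was lost without WT 15 for Rpl10 (edgeR adjusted p = 0.103), and without either WT library for Rpl34, Rpl3 and Rps2. Cyclic loess scaling also ended it for Rpl3 and Rps2, and the FPKM fits for Rps2.

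The stalk that recruits elongation factors to the ribosome is made of Rplp0 and the acidic proteins Rplp1 and Rplp2, and all 3 genes rose. Rplp0 had 2410.2, 2431, 3687 and 3178 CPM in WT 13, WT 15, 22 and 24 (log2 fold change 0.50, SE 0.15, edgeR adjusted p = 0.0343). Rplp1 had 722, 739.7, 1320 and 891 CPM in the same order (0.60, SE 0.19, edgeR adjusted p = 0.0463), and Rplp2 had 374, 341, 569 and 462 CPM (0.53, SE 0.13, edgeR adjusted p = 0.0216). Rplp0 differed least between 22 and 24 and Rplp1 most. Rpsa, a surface protein of the small subunit also known as the laminin receptor precursor, had the highest CPM of the family, at 2937 and 2990.1 in WT against 5131 and 4004 in libraries 22 and 24 (0.62, SE 0.17, edgeR adjusted p = 0.0268).

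Rpl38, a large-subunit protein whose loss in mice disturbs Hox mRNA translation, had 53.2 and 53.5 CPM in WT, against 92.8 and 66.0 in libraries 22 and 24 (log2 fold change 0.57, SE 0.17, edgeR adjusted p = 0.0367). Rps4x, the X-linked form of a small-subunit protein, had 1846 and 1775 CPM in WT against 2764 and 2123, and did not pass (0.43, SE 0.16, edgeR adjusted p = 0.0749) although its genotypes did not overlap. The calls of Rpl38, Rplp0, Rplp1, Rplp2 and Rpsa were each lost with cyclic loess, with both FPKM fits and without either WT library. Rpl38, Rplp0 and Rplp1 also did not pass with upper-quartile factors, nor these 3 and Rplp2 with library totals.

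Several genes with roles beyond the ribosome did not pass. Rpl5 and Rpl11 bind Mdm2 and so link the ribosome to p53. Rpl5 had 129, 105, 159 and 107 CPM in WT 13, WT 15, 22 and 24 (log2 fold change 0.19, SE 0.21, edgeR adjusted p = 0.525), so library 24 lay within the WT range. Rpl11 had only 122, 73, 108 and 112 counts, or 9.30, 5.56, 10.5 and 10.3 CPM, with the WT pair wider apart than the Setd2-CD4 cre pair and no overlap between genotypes (0.48, SE 0.28, edgeR adjusted p = 0.215). Rps19, which is mutated in Diamond-Blackfan anaemia, had 522, 490.1, 634 and 535 CPM, again without overlap (0.21, SE 0.13, edgeR adjusted p = 0.236). Rps6, the S6 kinase substrate, had 101, 105, 103 and 82 counts (0.16, SE 0.24, edgeR adjusted p = 0.635), with its genotypes overlapping. Rps27a, made as a fusion with ubiquitin, had 75.5, 76.1, 101 and 70.8 CPM (0.18, SE 0.17, edgeR adjusted p = 0.445), with library 22 above and 24 below both WT libraries.

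Only Rps27l, Rpl15 and Rpl22 of the 77 genes had a fitted log2 fold change below 0, and none of them passed. Rps27l, a paralog of Rps27 known as a p53 target, had 69.5 and 69.8 CPM in WT, against 70.3 and 58.1 in libraries 22 and 24 (-0.12, SE 0.13, edgeR adjusted p = 0.516). Rpl15 had 44.7, 45.7, 44.5 and 41.1 CPM (-0.08, SE 0.13, edgeR adjusted p = 0.663), with both Setd2-CD4 cre libraries below WT and a fitted difference smaller than its SE. Rpl22, which is needed for the development of alpha-beta T cells, had 206 and 199 CPM in WT, 232 CPM in library 22 and 157 CPM in library 24 (-0.06, SE 0.18, edgeR adjusted p = 0.827). The Setd2-CD4 cre libraries thus lay on either side of WT for Rpl22. Without library 22 its fitted log2 fold change was -0.36, with library 24 alone for the genotype, so the spread between 22 and 24 does not enter.

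Paralogs known from other tissues were near absent. Rpl39l, a testis-enriched form of Rpl39, had 3, 11, 10 and 4 counts (log2 fold change 0.31, SE 0.81, edgeR adjusted p = 0.793). Another 3 genes with the l ending were below the filter: Rpl3l, the muscle form of Rpl3, had a single count in library 24, Rpl10l had 0 in every library, which allows up to 0.228 to 0.292 CPM per library (3 counts), and Rps4l had 10, 38, 9 and 5. Rps29, an ordinary small-subunit gene, had 9, 3, 2 and 5 counts and was also untested. Those are the 4 genes outside the 77.

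The Setd2-CD4 cre libraries differed from each other across nearly the whole family. Library 22 lay above 24 in 76 of 77 genes (50% of all genes with a ratio), with a median log2 ratio of 0.42, while the WT pair had a median of 0.05 for 13 over 15 and all genes had -0.00 for 22 over 24. With 1 library on each side these ratios carry no test. At least 1.5-fold higher in 22 were 13 of the 77 genes (16.9%, against 7.66% of all genes) and none was lower (8.55%). Rpl41, a very short large-subunit protein, was 1.64-fold higher in 22, on 8118 and 5262 counts in 22 and 24. Rps23, which forms part of the decoding site, was 1.7-fold higher on only 85 and 53 counts. The exception was Rps13, at 90 and 117 counts in 22 and 24.

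Set against the WT mean, library 22 had a median log2 ratio of 0.68 and 49 of 77 genes at least 1.5-fold higher (63.6%, against 17.0% of all genes). Library 24 had a median of 0.24 and 5 of 77 genes past that fold (6.49%, against 14.3%), namely Rpl24, Rps12, Rpl36, Rps13 and Rps27. The 5 were named after their values were seen. In library 24, 65 of 77 genes lay above the WT mean (48.9% of all genes), and in 22 it was 76 of 77 (49.0%). By subunit the medians were 0.72 and 0.61 (large and small) in 22 and 0.29 and 0.17 in 24. The comparisons share the same WT libraries.

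**Figure D4:**
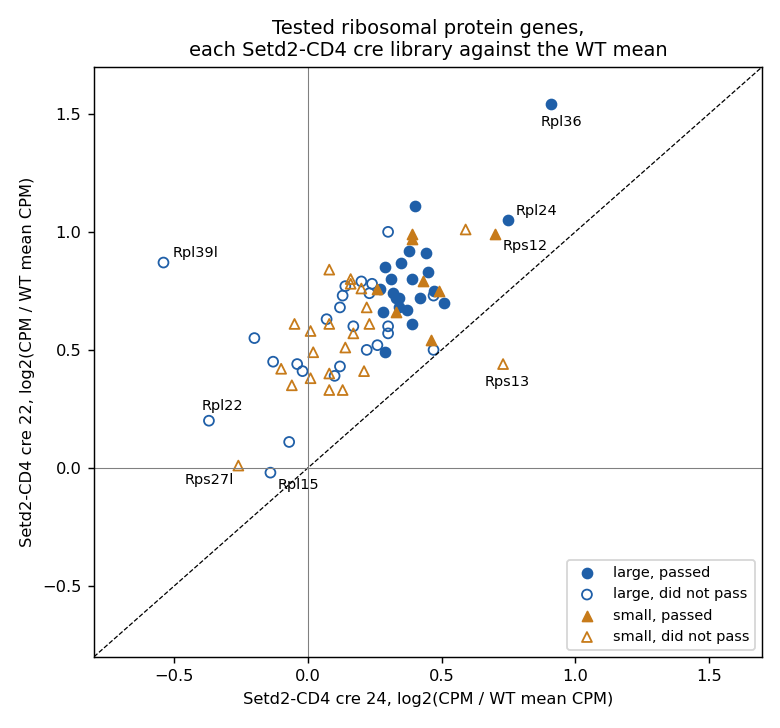
Each of the 77 tested genes as log2 of CPM over the WT mean CPM in library 24 (horizontal) and library 22 (vertical), with filled symbols for genes that passed and a dashed line of equality. All points but Rps13 lie above the line, and Rpl36, Rpl24 and Rps12 lie highest along it among the genes that passed.

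Other properties of the libraries moved with this difference. Tested genes outside the family with a coding transcript under 1000 bases had a median log2 ratio of 0.18 for 22 over 24 (860 genes), and those of 4000 bases or more had -0.10 (3223 genes). The family's own coding transcripts were 271 to 3706 bases long, with a median of 731.5. Between genotypes the same 2 classes had medians of -0.00 and 0.05, and the family kept a median of 0.49 with 42 genes higher (18.9% of all genes) when a smooth trend on transcript length was removed. The mitochondrial share of counts was 4.90, 5.31, 5.21 and 4.41% in WT 13, WT 15, 22 and 24. The part of the B cell sum, transcript length and mitochondrial share in the difference between 22 and 24 was not tested.

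Levels in FPKM varied over more than 3 orders of magnitude across the tested genes. In the deposited FPKM, which divides by a length for each gene, the highest means over the 4 libraries were 2267 for Rpl4, 2127 for Rpl13a and 1999 for Rpsa. The median of the tested genes was 94.1 (91.7 for large, 127 for small), and the lowest was 0.467 for the testis-enriched paralog Rpl39l. In counts, 16 genes had at least 10000 in each library and 14 had fewer than 150 in every one, among them Rps6 (82 to 105), Rpl9 (83 to 109), Rpl23a (39 to 69) and Rps27 (51 to 101). The lengths implied by the deposited counts and FPKM also spread FPKM: they ran from 404 to 11869 bases with a median of 2457.5. In 54 of 80 genes they were at least 2 times the length of a representative coding transcript. The order of genes by FPKM therefore depends on these lengths. Scaled to library totals and to the length of that transcript instead, Rps15, Rpsa and Rps4x ranked highest. Rpl4 was then at rank 6 and Rpl13a at rank 7. For Rps15a the length used was 11869 bases beside a transcript of 640, so its mean FPKM was 78.5 on 858, 799, 1181 and 915 CPM.

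Several of the low-count genes had near-identical rows elsewhere in the table with high counts. Representative transcripts were cut into words of 50 bases, and 20 rows outside the family held at least 50% of the words of one of its genes. Rpl23a-ps3 had 8452, 8147, 11913 and 9246 counts in WT 13, WT 15, 22 and 24, where Rpl23a had 39, 49, 69 and 45. Rpl9-ps6 had 6799, 6557, 8661 and 6983 counts beside the 85, 83, 109 and 97 of Rpl9, and Rpl27-ps3 had 5467, 5456, 7286 and 5644 beside the 95, 83, 103 and 91 of Rpl27. For Rps27 it was Rps27rt, an intronless copy, with 6568, 6289, 6926 and 5613 counts. These rows and genes were near-identical in sequence, and the sources used here do not say how shared reads were divided, so the value of either row alone is uncertain.

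Of the 18 copies tested, so named by shared words alone, 12 did not pass, 5 rose and 1 fell (16.2% higher and 14.5% lower among all genes), with a median log2 fold change of 0.52. The risers were Rpl23a-ps3 (0.67, edgeR adjusted p = 0.0187), Rpl27-ps3 (0.56, edgeR adjusted p = 0.0318), Rpl9-ps6 (0.54, edgeR adjusted p = 0.0285), Rps12-ps3 (0.82, edgeR adjusted p = 0.0142) and Wdr89, which holds words of Rplp2 (0.59, edgeR adjusted p = 0.0333). The one that fell was Flt3l (-1.12, edgeR adjusted p = 0.00164), the neighbour of Rpl13a and the gene of a cytokine receptor ligand. Rps27rt (0.28, edgeR adjusted p = 0.177) did not pass. With the copies added to their genes, Flt3l to Rpl13a among them, 33 of 77 genes rose (16.3% of all genes tested) and the median was 0.49.

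**Figure D5:**
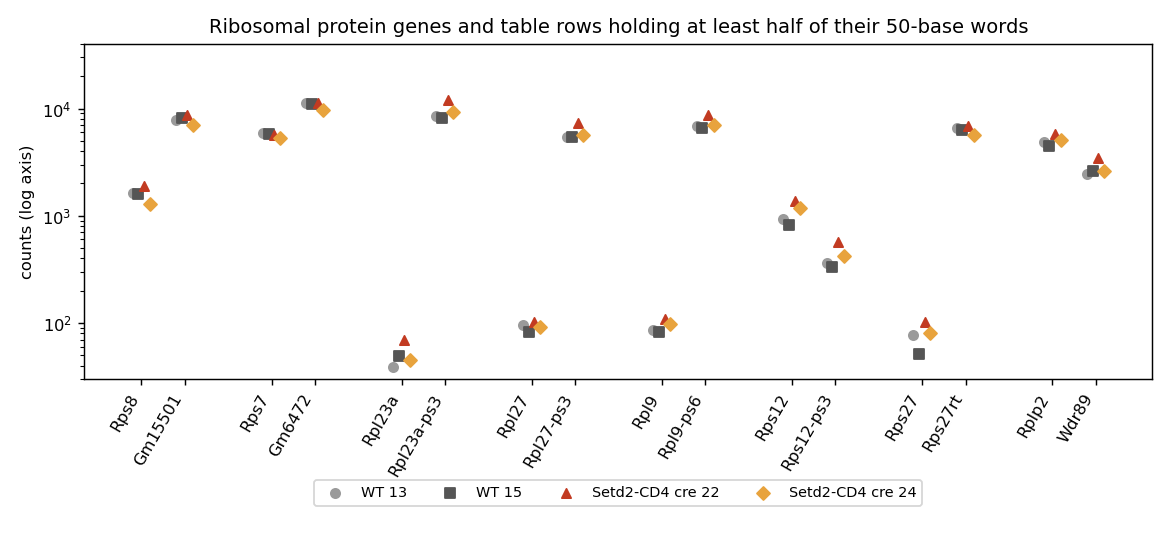
Counts per library on a log axis for 8 ribosomal protein genes and, to the right of each, a row of the table that holds at least 50% of its 50-base words. Rpl23a, Rpl27, Rpl9 and Rps27 lie at 39 to 109 counts while their copies lie at 5456 or above.

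Genes sharing many words with other rows had counts and medians close to those of the rest, and the difference was not tested. Among tested genes with at least 50% of their words shared, 15 of 43 rose, with a median of 0.50, and among those with less, 15 of 34 rose, with a median of 0.49. Of all genes tested, 16.2% rose. Of 5 tested genes with under 10% shared, 3 rose. Among these were Rps3 (2.96% shared; log2 fold change 0.50, edgeR adjusted p = 0.0410), a small-subunit protein at the mRNA entry, and Rps20 (7.44%; 0.53, edgeR adjusted p = 0.0463). Rpl24, Rps12 and Rpl36 shared 81.7%, 85.4% and 81.1% of their words, and Rpl10 and Rpl3 shared 92.1% and 85.6%. The rows of these genes are therefore open to reads of copies. Across tested genes the fold change had a Spearman rho of 0.19 with the shared percent, -0.14 with transcript length and 0.06 with mean FPKM (n = 77, genes of the same 4 libraries and so not independent, given as descriptions).

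Genes with and without the run within 3 bases of the annotated start also had similar counts and medians, again with no test of the difference. Within 25 bases 52 of the 60 matched genes had such a run, so many genes counted as without it carry one nearby. The split depends on where the start is annotated and so cannot compare TOP with non-TOP mRNAs. Of 24 tested genes with the run, 10 rose, with a median log2 fold change of 0.50 (16.2% of all genes tested rose, here and for the groups that follow). Of 34 without it 13 rose, with a median of 0.49, and of 19 not matched to a start 7 rose, with a median of 0.46. Rpl34, Rpl38 and Rplp2 passed and carry the run within 3 bases of the start. Rps6, Rpl15 and Rps27l carry it and did not pass. Rpl24, Rps12, Rpl10 and Rpsa passed without a run that close, though Rps12 has one further along its window.

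Of 8 tested ribosomal protein genes under other names, 0 passed by edgeR, with a median log2 fold change of 0.32. One of them, Rpl7l1, had a negative value (-0.19, edgeR adjusted p = 0.298). At an unadjusted p of 0.05 edgeR had 5 higher and 0 lower, with no share of all genes worked out at that threshold. DESeq2 called 3 higher after adjustment (14.9% of all genes) while both limma fits called 0. Fau, made as a fusion with a ubiquitin-like protein, stood at 353, 319, 451 and 383 CPM (0.31, edgeR adjusted p = 0.0924). Its genotypes did not overlap.

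Translation factors and other mRNAs known to carry TOP motifs had 9 of 20 higher and 0 lower, with a median log2 fold change of 0.38 (16.2% higher and 14.5% lower among all genes with edgeR, here and in the lists that follow). At an unadjusted p of 0.05 edgeR had 0 lower, as had DESeq2 after adjustment. With cyclic loess, and with FPKM, 3 of 20 were higher and 0 lower. In this list and those that follow, the shares of all genes with cyclic loess were 14.4% higher and 13.0% lower. With FPKM they were 9.8% and 21.2%. The 3 of 20 with cyclic loess is thus close to the share of all genes. Eef2, the elongation factor that moves the ribosome along, had 6121, 6226, 10379.7 and 8387 CPM in WT 13, WT 15, 22 and 24 (0.60, SE 0.18, edgeR adjusted p = 0.0346). Eif3a (0.75, edgeR adjusted p = 0.00612) and Eif3h (0.62, edgeR adjusted p = 0.0120) are subunits of the initiation factor that binds the small subunit, Vim is a filament protein (0.72, edgeR adjusted p = 0.00598), and Eif2s3x belongs to the factor that brings the initiator tRNA (0.50, edgeR adjusted p = 0.0190). Eef1a1, the factor that delivers tRNA during elongation, was at 13629.5, 12633, 20881 and 16767 CPM and did not pass (0.52, edgeR adjusted p = 0.0763).

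Among other initiation factors 7 of 25 rose and 1 fell, with a median of 0.28, and cyclic loess and FPKM each left 3 higher and 1 lower. In both of these fits 3 of 25 is near the share of all genes higher. Eif3g (0.74, edgeR adjusted p = 0.00407), Eif5 (0.77, edgeR adjusted p = 0.00550), Eif2s2 (0.75, edgeR adjusted p = 0.00590) and Eif3m (0.56, edgeR adjusted p = 0.0169) rose, and Eif4g1, the scaffold of cap binding, fell (-0.35, edgeR adjusted p = 0.0343). Factors that meet the nascent chain at the ribosome had 10 of 19 higher and 1 lower, with a median of 0.48 (9 and 1 with cyclic loess, 5 and 1 with FPKM). They included the signal recognition particle subunits Srp72 (0.58, edgeR adjusted p = 0.00677) and Srp68 (0.55, edgeR adjusted p = 0.00903), the chaperone Hspa8 (0.80, edgeR adjusted p = 0.00981) and Naa15, a subunit of an N-terminal acetyltransferase (0.49, edgeR adjusted p = 0.0104). Btf3l4, a paralog of a nascent chain binding factor, fell (-1.05, edgeR adjusted p = 0.0111).

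Regulators of TOP mRNAs and of mTORC1 had 2 of 19 higher and 1 lower, with a median of 0.05 (1 and 1 with cyclic loess and with FPKM). Larp1 stood at 296, 293, 319.9 and 289 CPM (0.05, edgeR adjusted p = 0.764). Larp4, which binds poly(A) tails, rose (0.73, edgeR adjusted p = 0.00310), as did the mTORC1 inhibitor Tsc1 (0.40, edgeR adjusted p = 0.0391), and the stress-induced mTORC1 inhibitor Sesn2 fell (-0.54, edgeR adjusted p = 0.0108). Dedicated chaperones and assembly factors of ribosomal proteins had 3 of 12 higher, 2 lower and a median of 0.04. Cyclic loess left 3 higher and 0 lower (2 lower at an unadjusted p of 0.05), and FPKM 2 and 2. Aamp rose (0.55, edgeR adjusted p = 0.00931), as did Pdcd2 (0.62, edgeR adjusted p = 0.0280) and Pdcd2l (0.62, edgeR adjusted p = 0.0262), while Rrs1 (-0.84, edgeR adjusted p = 0.0259) and Heatr3 (-0.74, edgeR adjusted p = 0.0269), which act with Rpl5 and Rpl11, fell.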

How the data were processed

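RNA of 4 libraries was analysed, 2 per genotype, named by the numbers in their titles. One title, 15, disagrees with its own cell type label (14), and titles were used throughout. Bowtie2, RSEM, GRCm38.p6 and mm10 are named in the submitters' processing notes, without versions or roles. The authors deposited whole-number counts per gene and FPKM values, per the file headers. Recomputing FPKM from the deposited counts, library sums and 1 length per gene gave the deposited values to within 0.0674%. Each length was itself worked out from the deposited counts and FPKM, as a median over libraries. The match therefore shows only that 1 length per gene serves all 4 libraries. The sources used here do not say how shared reads were divided, whether strand was used or whether the counts were rounded. All per-sample columns were mapped, and 0 were left out.

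Counts were tested with edgeR 4.0.16 in R 4.3.3 (TMM factors of 1.05 and 1.06 in WT and 0.934 and 0.964 in libraries 22 and 24, filterByExpr by genotype with a minimum count of 10, robust quasi-likelihood fit), with Benjamini-Hochberg adjustment over 12927 genes and a threshold of 0.05. Positive log2 values mean higher in Setd2-CD4 cre. Alternatives used DESeq2 1.42.0 and limma 3.58.1 (voom, and trend on log2(FPKM + 1) or log2(FPKM + 0.1), which understates changes of low genes), other scalings and leaving out each library, where a lone library is assumed to vary like the other genotype. Shares per library were compared by an exact permutation test in SciPy 1.17.1.

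Coordinates and representative coding transcripts came from GENCODE M21, where 57 of the 81 genes had the coordinates of the deposited table, and start sequences came from RefSeq (GRCm38.p6). A word counts as shared if another gene's transcript holds the same 50 bases.

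The genes and lists were chosen with earlier results of these data known. Named ribosomal protein genes are Rpl24 and Rps12, the 4 genes of each subunit with the smallest p, the 2 highest and 2 lowest fold changes, the stalk genes and Rpsa, genes with known roles elsewhere (Rps27a, Rps6, Rpl5, Rpl11, Rps19, Rpl22, Rpl3, Rpl10, Rpl38) and paralogs ending in l or x. Up to 4 passing genes with the smallest p are named per list. A few genes chosen in this way are left out of the text but stay in the counts. Others, such as Rpl41, Rps13, Rps23, Rps27, Rps3, Rps20, Rps15a, Rpl9, Rpl23a, Rpl27, Eef2, Eef1a1, Eif4g1, Btf3l4, Larp1, Pdcd2 and Fau, were named after their values were seen.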

Additional observations from a re-analysis of the deposited data

How the results depend on the processing

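Of the 30 ribosomal protein genes higher in the reported fit, all had a positive log2 fold change in each of 16 alternatives, and Rpl24, Rps12 and Rpl36 passed in all of them. RLE factors, DESeq2, no filter, pseudogene rows or copies added, and offsets on gene or transcript length gave 30 to 42 genes higher. The share of all genes higher in these fits was 12.3% to 18.9%. Upper-quartile factors gave 14 (12.1% of all genes), library totals 12 (10.9%) and cyclic loess 9 (14.4%). The fits by limma-trend on log2(FPKM + 1) and on log2(FPKM + 0.1) gave 8 each (9.8% and 9.82%). With 77 genes tested, cyclic loess called the family less often than all genes. The FPKM fits called it at close to the all-gene share. With either WT library left out, the family was called no more often than all genes. Leaving out 1 library gave 3 to 66 higher, and 0 to 1 lower. Over these omissions the family median ran from 0.25 to 0.68, that of the large subunit from 0.29 to 0.72 and that of the small subunit from 0.17 to 0.61, the lowest without Setd2-CD4 cre 22. Cyclic loess put the small-subunit median at 0.22. The genotype difference in the family's share was 1.9 percentage points of summed FPKM and 0.4 to 1.53 of counts over the omissions. The difference in the large-subunit percent was 1.3 points in FPKM, 1.58 without the 5 most abundant genes, 1.32 with copies added and 0.649 to 1.05 over the omissions. The causes were not tested.

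Signs turned for genes that had not passed: over the omissions of 1 library, Rpl22 ran from -0.36 to 0.20, Rps27l from -0.25 to 0.02, Rpl39l from -0.52 to 1.49 (-0.33 without WT 13), Rpl5 from -0.12 to 0.45, Rps27a from -0.09 to 0.42 and Rps6 from -0.05 to 0.36, each at its lowest without Setd2-CD4 cre 22. Rps19 was -0.02 with cyclic loess, and Rps6 was -0.0018 and -0.0046 in the FPKM fits. Of 368 values of named genes under alternatives, 302 kept direction and side of the threshold, 46 lost the call, 10 gained it and 10 turned.

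Adding copies, the transcript-length offset and the scalings of 22 against 24 (median 0.37 to 0.42) were chosen after seeing the data. No paired analysis was possible because the genotypes share no replicate number. Low counts limit 14 genes, and with 2 libraries against 2 no single gene or share can reach an exact p below 0.333.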
